A study of Mus musculus with 2 samples.

Results

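Kv1 potassium channels, their beta subunits and the secreted protein LGI1 with its receptor ADAM22 were measured in layer 5 of the mouse cerebral cortex. The set was a given list of 10 genes, found by matching gene identifiers to symbols: the alpha subunit genes Kcna1, Kcna2, Kcna3, Kcna4 and Kcna6, the beta subunit genes Kcnab1, Kcnab2 and Kcnab3, and the partner genes Lgi1 and Adam22. All 10 were found, among 69691 feature rows of which 21474 are protein-coding genes. The donor was a male wild-type mouse of C57Bl6 background, strain B6NCrl, aged 8 months, with no treatment, transgene or comparison group. Areas of about 8000 square microns were dissected by laser capture, each entered as 50 cells, and made into RNA-seq libraries by a Smart-seq protocol, which amplifies cDNA from very small inputs. Both of the 2 libraries carry the label of a biological replicate (1 and 2) and name 1 donor, so each SD below is the spread between areas of what the labels give as 1 animal.

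Kv1 channels open at small depolarisations and oppose repetitive firing, and in neurons they sit at the axon initial segment, beside the nodes of Ranvier and in presynaptic terminals. Alpha subunits of the family assemble with one another into mixed channels around a shared pore, and cytoplasmic beta subunits bind to them and alter their inactivation and traffic. LGI1 is secreted at synapses, binds ADAM22 and related receptors, and has been found in complexes with Kv1 channels; human mutations in LGI1 cause an inherited temporal lobe epilepsy, and mutations in KCNA1 cause episodic ataxia.

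All alpha subunits share the pore, and the coding sequence around it is shown for all 5 so that the likeness of genes with very unlike levels can be seen. Each window has 90 bases of the coding sequence, taken 5′ to 3′ from the GENCODE M21 transcripts on GRCm38. Capitals mark the 18 bases that encode the selectivity signature of potassium channels.
Kcna1: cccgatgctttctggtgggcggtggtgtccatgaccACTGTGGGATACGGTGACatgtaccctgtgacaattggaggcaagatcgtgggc
Kcna2: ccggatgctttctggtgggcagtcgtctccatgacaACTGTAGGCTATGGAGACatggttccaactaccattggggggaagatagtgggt
Kcna3: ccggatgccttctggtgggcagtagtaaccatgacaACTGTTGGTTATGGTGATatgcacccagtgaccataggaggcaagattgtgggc
Kcna4: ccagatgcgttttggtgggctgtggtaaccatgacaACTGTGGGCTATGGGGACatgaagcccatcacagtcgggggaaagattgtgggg
Kcna6: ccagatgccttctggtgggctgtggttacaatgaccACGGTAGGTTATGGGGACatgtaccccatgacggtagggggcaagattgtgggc

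These windows lie at chr6:126642189-126642278 on the minus strand for Kcna1, chr3:107105188-107105277 on the plus strand for Kcna2, chr3:107037575-107037664 on the plus strand for Kcna3, chr2:107296459-107296548 on the plus strand for Kcna4 and chr6:126738608-126738697 on the minus strand for Kcna6. The capitals are codons of the potassium channel selectivity signature, searched in every synonymous spelling on the sense strand of transcripts in any reading frame. A match was held by a transcript of 22 of 21901 protein-coding genes (0.10%). Identity between the windows ran from 74.4% for Kcna2 and Kcna6 to 83.3% for Kcna4 and Kcna6. Exact matches were short: the longest run shared by the coding sequences of any pair of alpha subunits was 31 bases, between Kcna1 and Kcna6, and that of any pair of beta subunits was 26 bases, between Kcnab1 and Kcnab2.

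Among the alpha subunits Kcna1 was the most abundant, Kcna6 followed, and Kcna2, Kcna3 and Kcna4 were close to the limit of 1 TPM used here for detection. TPM corrects each count for the length of the transcript and for sequencing depth. Kcna1, which encodes the alpha subunit of axonal and presynaptic channels, had 45.2 TPM in replicate 1 and 42.6 TPM in replicate 2, from 8633 and 8402 expected counts. The gene (chromosome 6, 126640397 to 126646384, minus strand, as annotated in M21 on the same assembly as the files, as are all positions here) stood at the 78.9 percentile of expressed protein-coding genes by its mean. Its areas were close, with a mean of 43.9 ± 1.88 TPM (SD, n = 2).

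Kcna6, an alpha subunit of the same family (chromosome 6, 126708329 to 126740674, minus strand), had 18.9 TPM in replicate 1 and 17.0 TPM in replicate 2, with 1095.4 and 1040.1 expected counts. Most of this level was assigned to a transcript without the coding sequence, as described below. Kcna1 and Kcna6 are neighbours on chromosome 6, and their levels did not overlap in these areas.

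Kcna2, the alpha subunit that joins Kcna1 products in channels along myelinated axons (chromosome 3, 107101146 to 107115005, plus strand), had 0.29 TPM in replicate 1 and 2.34 TPM in replicate 2, from 21 and 175 counts. Kcna3, best known from T cells and microglia (chromosome 3, 107036169 to 107038070, plus strand), had 1.47 TPM in replicate 1 and 2.91 TPM in replicate 2, from 59 and 121 counts. Kcna4, whose subunit gives rapidly inactivating currents (chromosome 2, 107290639 to 107298502, plus strand), had 0.68 TPM in replicate 1 and 1.53 TPM in replicate 2, from 69 and 160 counts. All 3 were lower in replicate 1, and each was above the floor of 3 counts, which equals 0.115 CPM (counts scaled to library size only) in replicate 1 and 0.106 CPM in replicate 2. Kcna2 and Kcna4 reached a mean of 1 TPM only through replicate 2, so 8 of the 10 genes were at 1 TPM in both areas.

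The beta subunit genes were expressed at nearly equal levels. Kcnab1, whose product can inactivate Kv1 channels rapidly by blocking the open pore from inside (chromosome 3, 65109384 to 65378223, plus strand), had 46.1 TPM in replicate 1 and 36.0 TPM in replicate 2, from 3044 and 2440 counts. Kcnab2, whose product supports the surface and axonal delivery of the channels (chromosome 4, 152390742 to 152477871, minus strand), had 49.0 TPM in replicate 1 and 38.6 TPM in replicate 2, from 2790 and 2746 counts. Kcnab3, the remaining member of the family (chromosome 11, 69326258 to 69333042, plus strand), had 48.3 TPM in replicate 1 and 41.5 TPM in replicate 2, from 2277 and 2088 counts. All 3 were higher in replicate 1 by TPM, and within each library they differed little from one another.

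Lgi1 differed between the areas, and its receptor gene had nearly equal TPM in both. Lgi1 (chromosome 19, 38264536 to 38312214, plus strand) had 20.9 TPM in replicate 1 and 41.1 TPM in replicate 2, from 1786 and 3634 counts. Adam22, which encodes a membrane protein with a disintegrin and inactive metalloprotease domain (chromosome 5, 8072352 to 8368160, minus strand), had 46.0 TPM in replicate 1 and 46.3 TPM in replicate 2, from 6141 and 7337 counts. The ratio of Adam22 to Lgi1 TPM was therefore 2.20 in replicate 1 and 1.13 in replicate 2.

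**Figure D1:**
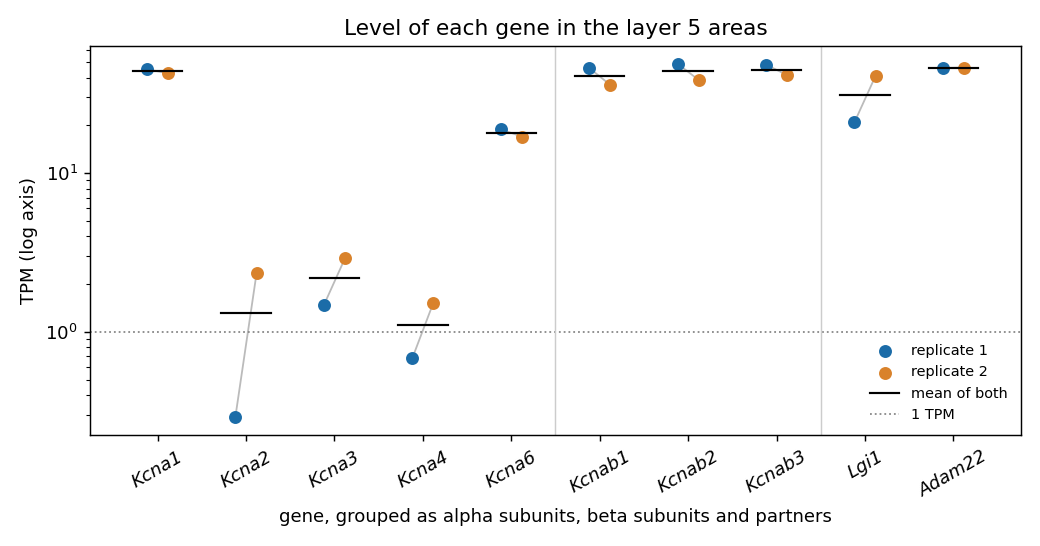
TPM (log axis) of the 10 genes in replicate 1 (left point) and replicate 2 (right point), with the mean of both as a bar and 1 TPM as a dotted line. Kcna1, the 3 beta subunit genes and Adam22 lie together between 36.0 and 49.0 TPM, while Kcna2, Kcna3 and Kcna4 lie under 3 TPM.

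By mean TPM the order was Adam22 at 46.1 ± 0.233 (SD, n = 2 here and in the next values), Kcnab3 at 44.9 ± 4.86, Kcna1 at 43.9 ± 1.88, Kcnab2 at 43.8 ± 7.36 and Kcnab1 at 41.0 ± 7.16. Lgi1 at 31.0 ± 14.3, Kcna6 at 18.0 ± 1.34, Kcna3 at 2.19 ± 1.02, Kcna2 at 1.32 ± 1.45 and Kcna4 at 1.11 ± 0.601 followed. Only the steps between Lgi1 and Kcna6 and between Kcna6 and Kcna3 separated neighbours whose values did not overlap between the areas. The first 6 genes stood between the 72.5 and 79.7 percentiles of expressed protein-coding genes, Kcna6 at 59.8, and the last 3 between 1.28 and 11.6. In tissue pieces such as these, fewer cells of a type and less RNA per cell cannot be told apart.

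The composition of each family was similar in both areas. The alpha subunit genes summed to 66.6 TPM in replicate 1 and to 66.4 in replicate 2. Kcna1 made up 67.9% of it in replicate 1 and 64.1% in replicate 2, and Kcna6 made up 28.4% and 25.6%. Kcna3 made up 2.21% in replicate 1 and 4.39% in replicate 2, Kcna4 1.02% and 2.31%, and Kcna2 0.436% and 3.53%. The 3 low genes thus had larger shares in replicate 2, and the order of Kcna1 before Kcna6 was the same in both.

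The beta subunit genes summed to 143 TPM in replicate 1 and to 116 in replicate 2. Kcnab1 held 32.1% of it in replicate 1 and 31.0% in replicate 2, Kcnab2 34.2% and 33.3%, and Kcnab3 33.7% and 35.7%. The alpha sum was 0.464 of the beta sum in replicate 1 and 0.572 in replicate 2, a mean of 0.518 ± 0.0763 (SD, n = 2). This ratio depends on scaling for length: by CPM it was 1.29, because Kcna1 was counted over a transcript of 8970 bases.

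**Figure D2:**
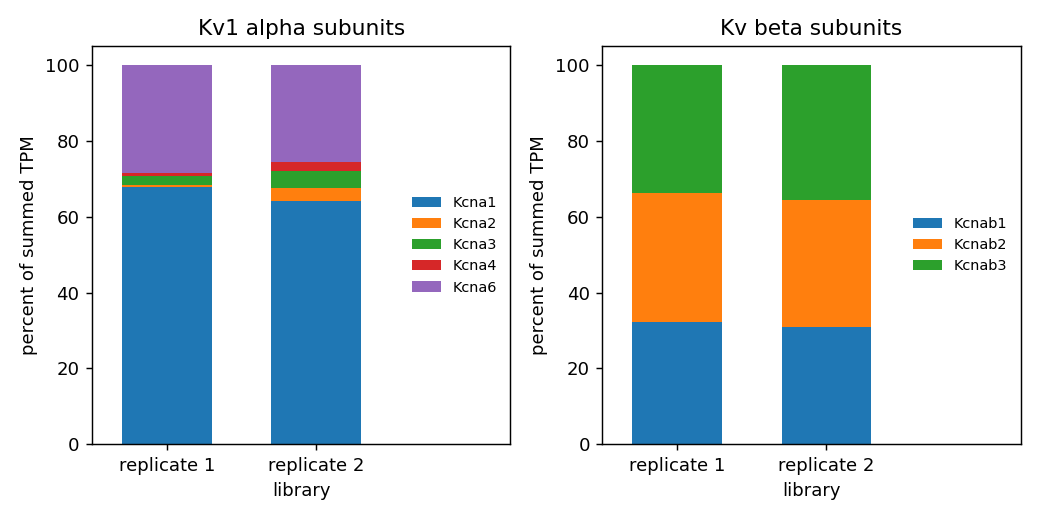
Percent of the summed TPM of the alpha subunit genes (left panel) and the beta subunit genes (right panel) held by each gene, with replicate 1 left of replicate 2 in each panel. Kcna1 holds 67.9% and 64.1% of the alpha sum, and the beta genes hold between 31.0% and 35.7% each.

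Between the areas, 1 of the 10 genes differed by more than 2-fold on the log2(TPM + 1) scale, which understates the differences of low genes. Of the 11841 protein-coding genes that averaged at least 1 TPM, 10.3% did so, so the share among the 10 was near that of all genes. The gene was Kcna2, with a log2 ratio of replicate 1 over replicate 2 of -1.37. By counts per total, Kcna2 was 7.68-fold higher in replicate 2, with an exact Clopper-Pearson 95% interval of 4.87 to 12.7, which covers counting error only, as do all intervals here, since reads carried no molecular identifiers. Between 1 and 5 TPM, where Kcna2, Kcna3 and Kcna4 lie, 21.1% of 3330 genes differed by more than 2-fold, and the median absolute log2 ratio was 0.50.

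Kcna3 and Kcna4 had log2 ratios of -0.66 and -0.59, little beyond that median. By counts, Kcna3 was 1.89-fold higher in replicate 2 (1.37 to 2.63) and Kcna4 2.14-fold higher (1.60 to 2.88). Both intervals lay above 1, but they cover counting error of reads only, with 1 library on each side. With a pseudocount of 0.1 TPM in place of 1, the log2 ratio of Kcna4 was -1.06 and the number of genes beyond 2-fold was 2.

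Lgi1 had a log2 ratio of -0.94, just inside 2-fold, at a level where few genes differ so much: between 25 and 50 TPM, 3.19% of 1565 genes were beyond 2-fold and the median absolute log2 ratio was 0.26. By counts it was 1.88-fold higher in replicate 2 (1.77 to 1.99). It kept this direction under every scaling tried, with log2 ratios from -0.97 to -0.90. With 1 library on each side the difference has no replicate check.

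The other members differed little. Kcna1 had a log2 ratio of 0.09, Kcnab3 0.22, Kcnab2 0.34 and Kcnab1 0.35, and Adam22 had -0.01. Kcna6 had 0.14, in a class of 15 to 25 TPM in which 5.74% of 1446 genes differed by more than 2-fold. Over all 10 genes the median log2 ratio was 0.04, against -0.05 over all expressed protein-coding genes. In all, 5 genes were higher in replicate 1 (Kcna1, Kcna6 and the beta subunit genes) and 5 in replicate 2. Centring on the median gene turned Adam22 to 0.04 and left the other directions as they were. By counts, the largest of the differences toward replicate 1 was that of Kcnab1, at 1.35-fold (1.28 to 1.43), while Kcnab2 was 1.10-fold higher (1.05 to 1.16).

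**Figure D3:**
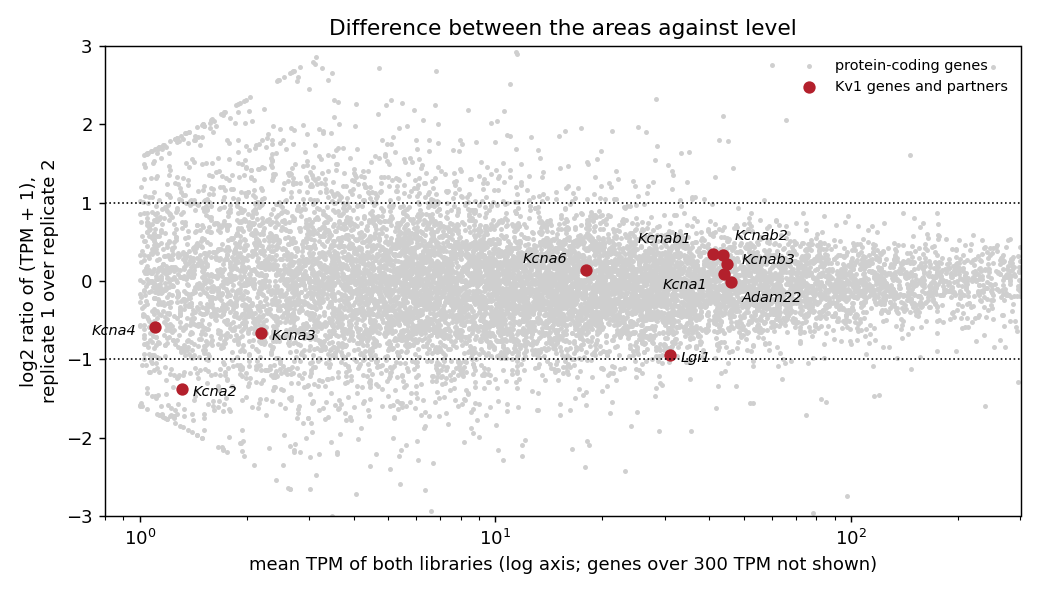
Log2 ratio of (TPM + 1), replicate 1 over replicate 2, against mean TPM (log axis) for expressed protein-coding genes (grey) and the 10 genes (red), with 2-fold marked by dotted lines. Kcna2 at -1.37 lies past the line and Lgi1 at -0.94 just inside it, with the other genes closer to 0.

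The transcript tables divided the genes among 56 annotated transcripts. Kcna1, Kcna2 and Kcna3 had 1 transcript each, and Kcna4-201 held 100% of Kcna4 in both areas. For Kcna6, the leading transcript was Kcna6-203, with 81.0% of the gene's TPM in replicate 1 and 79.5% in replicate 2. By expected counts, which are not divided by length, Kcna6-203 held 59.6% in replicate 1 and 57.3% in replicate 2. It has 2080 bases in 3 exons, lies within 126708331 to 126736811 and holds none of the 1587 coding bases, so the pore window shown above is not part of it. The transcripts that hold the coding sequence had 3.59 TPM in replicate 1 and 3.48 TPM in replicate 2, from 442.6 and 443.7 counts. Of these counts, 257.8 in replicate 1 and 443.7 in replicate 2 fell to Kcna6-201, which M21 classes with transcripts subject to nonsense-mediated decay.

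Kcna6-203 has 106 bases in no other transcript of the gene and holds none of the 1587 coding bases. The deposited posterior SD of its count was 12.5 in replicate 1 and 11.9 in replicate 2. The split between Kcna6-201 and Kcna6-204, which share the coding sequence, rests on few bases, 2 and 12 of their own. Kcna6-201 had 11.1% in replicate 1 and 20.5% in replicate 2, and Kcna6-204 had 7.92% and 0%. The deposited posterior SD of their counts in replicate 1 was 143 and 142, so the division between these transcripts is uncertain. With coding transcripts alone, an alternative added after seeing the data, Kcna1 made up 84.4% of the alpha sum in place of 66.0%. Here and below, coding transcripts are those with a coding sequence in M21, whatever their class. An antisense gene, Gm26673, shares 2355 exonic bases with Kcna6 and was given 45.6 counts in replicate 1 against 86.9 in replicate 2. The strand setting of the counting is not given in the sources used here, so reads of the pair cannot be told apart, and the level of Kcna6 is uncertain.

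Kcnab3 changed its transcript balance between the areas. Kcnab3-203, classed as a retained intron and with no coding sequence annotated in M21, held 60.6% in replicate 1 and 42.7% in replicate 2. Kcnab3-201, annotated with 1212 coding bases, held 39.4% in replicate 1 and 57.3% in replicate 2. Most bases of these transcripts are shared: 254 of the 2126 bases of Kcnab3-203 and 666 of the 2538 of Kcnab3-201 are in no other. How many coding bases Kcnab3-203 shares was not counted. In TPM the coding transcript had 19.0 in replicate 1 and 23.8 in replicate 2, the opposite direction from the gene as a whole. The authors' deposited intervals for the noncoding transcript were 25.2 to 31.7 TPM in replicate 1 and 13.9 to 20.6 TPM in replicate 2, and did not overlap, while those of the coding transcript, 16.1 to 21.3 and 20.2 to 26.1 TPM, did. Kcnab3os, an antisense gene with 147 shared exonic bases, had 17 counts in replicate 1 and 6 in replicate 2.

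Kcnab2 also shifted. Kcnab2-201, its leading coding transcript, held 61.2% in replicate 1 and 78.0% in replicate 2. Kcnab2-205, which begins at an internal start, held 12.4% in replicate 1 and 3.60% in replicate 2, and Kcnab2-207 held 0% and 8.57%. The deposited intervals of Kcnab2-205, 2.25 to 10.7 TPM in replicate 1 and 0.184 to 3.97 TPM in replicate 2, overlapped. Those of Kcnab2-207 also did, reaching 2.11 TPM in replicate 1 and running from 1.13 to 5.15 TPM in replicate 2. Coding transcripts together had 38.1 TPM in replicate 1 and 35.7 TPM in replicate 2, closer than the 49.0 and 38.6 TPM of the whole gene. The remainder in replicate 1 included short noncoding transcripts, Kcnab2-213 at 11.5% and Kcnab2-214 at 7.76%, against 7.56% and 0% in replicate 2.

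Kcnab1 and Lgi1 kept nearly the same transcript shares. Kcnab1-201 held 79.4% in replicate 1 and 79.2% in replicate 2, and the noncoding Kcnab1-204, whose start at 65188103 lies inside the gene, held 19.0% and 18.1%. Lgi1-201 held 89.3% in replicate 1 and 90.0% in replicate 2. M21 gives Lgi1-201 as 4482 bases and classes it with transcripts subject to nonsense-mediated decay, whereas the tables used a model of 4259 bases, so that class need not apply to the transcript counted. The difference in Lgi1 between the areas was shared by its transcripts, with Lgi1-201 at 18.7 against 37.0 TPM and the retained intron transcript Lgi1-203 at 1.29 against 2.21 TPM, replicate 1 against replicate 2.

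Adam22 had nearly the same TPM in both areas while its minor transcripts differed. By counts per total the gene was 1.10-fold higher in replicate 2 (1.06 to 1.14). The gene length used for TPM was 6308 bases in replicate 1 and 7222 in replicate 2. The leading Adam22-204 held 44.8% in replicate 1 and 47.4% in replicate 2. Adam22-209, a transcript of 1601 bases, held 21.5% in replicate 1 and 0% in replicate 2, and the short Adam22-205 held 3.96% and 15.4%. Adam22-202 held 5.10% in replicate 1 and 17.5% in replicate 2, but the posterior SD of its count was 526 in replicate 1 and 430 in replicate 2, against 447.2 and 1597.7 counts. Of the 21 Adam22 transcripts, 10 had counts in both areas and 10 in neither.

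Of 3434 protein-coding genes with several transcripts and an average of at least 20 TPM, 24.1% changed the share of their leading transcript by over 10 points, as did 2 of 5 such genes here, Kcnab2 and Kcnab3. The median change was 2.66 points for these 5 genes and 4.30 points for all. With so few genes the counts set nothing apart.

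**Figure D4:**
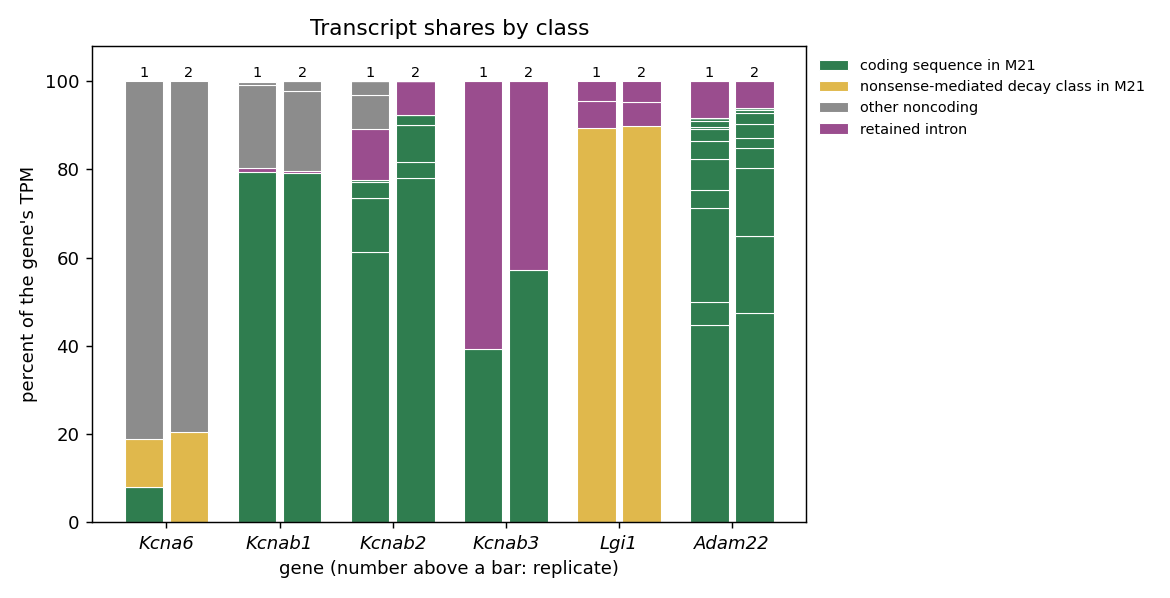
Percent of each gene's TPM held by its transcripts, stacked and coloured by M21 class, for the 6 genes with noncoding transcripts in use; the left bar is replicate 1 and the right bar replicate 2. Noncoding transcripts hold 81.0% and 79.5% of Kcna6, and the retained intron transcript of Kcnab3 holds 60.6% and 42.7%.

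Transcript models also bear on the low alpha subunit genes. The tables counted Kcna2 over a model of 3456 bases, while M21 gives 11582 bases, and they counted Kcna1 over 8970 bases, while M21 gives 4031. Reads from Kcna2 bases outside the shorter model are not in its counts, and the part this plays in its low level was not tested. Kcna3 (1968 and 1902 bases) and Kcna4 (4792 bases in both) were nearly the same in both releases. Shared sequence was a small matter for most over the M21 models: no stretch of 50 bases of Kcna1, Kcna4 or Adam22 occurred in an M21 transcript of another gene. For Kcna2, Kcna3 and the beta subunit genes the shared part was between 0.324% and 1.33% of such stretches. Bases of the counted models that M21 lacks, as in the 8970 bases of Kcna1, were not searched. The shared part was 38.8% for Kcna6, with 2 other genes, and 12.9% for Lgi1 over the longer M21 models. Gm26673, the antisense gene described above, shares 2355 exonic bases with Kcna6, and its part in this share was not tested.

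Of 25 other listed genes of the same pathways, 20 reached 1 TPM in both areas. By the same measure as above, 0 of the 25 differed by more than 2-fold, beside 10.3% of expressed protein-coding genes; the 25 include genes too low to differ on that scale. Of them, 12 were higher in replicate 1 and 10 in replicate 2, and 3 had 0 counts in both, which allows up to 0.115 CPM in replicate 1 and 0.106 CPM in replicate 2. The other alpha subunit genes were low or not detected: Kcna5 was counted 17 times in replicate 1 and 0 times in replicate 2, and Kcna7 and Kcna10 had 0 in both. The related receptor gene Adam23 had 38.5 TPM in replicate 1 and 33.6 TPM in replicate 2. Adam11 of the same family had 6.93 and 10.3 TPM. Of the LGI relatives, Lgi3 had 31.9 TPM in replicate 1 and 29.0 TPM in replicate 2, while Lgi2, at 10.5 and 5.22 TPM, leaned the opposite way from Lgi1. Lgi4 had 29.5 counts (0.89 TPM) in replicate 1 and 0 in replicate 2.

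All 9 genes for proteins of the initial segment, the juxtaparanode and their scaffolds reached 1 TPM in both areas. Ank3, which encodes the organiser of the axon initial segment, had 97.3 TPM in replicate 1 and 93.9 TPM in replicate 2. Cntnap2 and Cntn2, whose products gather Kv1 channels beside the nodes of myelinated axons, had 11.4 and 3.77 TPM in replicate 1 and 17.5 and 8.11 TPM in replicate 2. Of the 9 genes, 4 were higher in replicate 1 and 5, Cntnap2 and Cntn2 among them, in replicate 2. Kcna2 was also lower in replicate 1 and Kcna1 was not, and a link to these genes was not tested. Among proteins that bind the channels or guide their traffic, 7 of 8 genes passed 1 TPM in each area. Kcne4 had 0 counts in both.

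Markers of several cell classes differed between the areas, and their values stand beside the differences above. Totals were 26059117 expected counts in replicate 1 and 28276843 in replicate 2, with spike-ins at 7.19% and 7.94%. All 6 layer 5 markers reached 1 TPM in both areas, and 5 were higher in replicate 2. Their summed level was 3070 TPM in replicate 1 against 3804 TPM in replicate 2, most of it from Pcp4 at 2922 and 3599 TPM. Bcl11b went the other way, at 11.0 and 6.91 TPM, and Rbp4 was beyond 2-fold, at 42.1 and 88.2 TPM. All 6 genes listed for parvalbumin interneurons were beyond 2-fold higher in replicate 1, with sums of 1648 and 256 TPM. Pvalb itself had 918 TPM in replicate 1 and 145 TPM in replicate 2. All 4 genes listed for somatostatin interneurons were beyond 2-fold higher in replicate 2, with sums of 222 and 3263 TPM. Sst itself had 194 TPM in replicate 1 and 2859 TPM in replicate 2. Both lists hold genes that other interneurons also express, Gad1 and Erbb4 in the former and Crh, Tac2 and Npy in the latter. Kcna1 and the beta subunit genes, also expressed by fast-spiking interneurons, differed by at most 0.35 on the log2 scale between these areas, and the part of interneuron content in their levels was not tested.

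All 5 excitatory neuron markers were higher in replicate 2, with sums of 1096 and 1374 TPM, and Slc17a7, the vesicular glutamate transporter gene, had 56.2 TPM in replicate 1 and 112 in replicate 2. Lgi1 differed in the same direction and by a similar factor to Slc17a7; the part of cell makeup in this difference was not tested. All 8 oligodendrocyte markers were higher in replicate 2, 6 of them beyond 2-fold, with sums of 580 and 1117 TPM, as was Kcna2, and their part in its difference was not tested. All 8 microglial markers were higher in replicate 1, with sums of 257 and 74.5 TPM, whereas Kcna3 was lower there. Of 6 T cell markers, 5 had 0 counts in both areas, and Cd4 had 8 and 1. All 5 pan-neuronal markers were higher in replicate 2, with sums of 7494 and 8737 TPM and 0 beyond 2-fold. Of 5 endothelial markers, 4 were higher in replicate 1, 2 of them beyond 2-fold. Of 6 astrocyte markers, 3 were higher in each area and 0 were beyond 2-fold.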

How the data were processed

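RNA was sequenced from 2 layer 5 areas by a Smart-seq protocol, per the labels' protocols. The deposited tables give an expected count (reads that fit several features are divided among them) and TPM, which the authors scaled per library over all features, spike-ins and mitochondrial genes included. The deposited transcript tables give each transcript's percent of its gene. The assembly was mm10 and the annotation M4, per the deposited text files; program, aligner and strand setting are not given in the sources used here. Gene names, classes, positions and sequences came from GENCODE M21 on GRCm38; all 10 genes matched by identifier without version, and 51 of 56 transcripts had equal lengths in both releases.

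The genes, partner and marker lists were chosen with earlier results of these data known. All 10 genes, and listed partners and markers, could be named. A listed partner is not reported here. Ratios used log2(TPM + 1), replicate 1 over replicate 2; with 1 group of 2 libraries no p-value was computed. Protein-coding genes averaging at least 1 TPM served as background. Count ratios used rounded expected counts. Count ratios, and fold calls with a pseudocount of 0.1 TPM, were tested on simulated data with counting error only and without genes of low count. Fold calls on the log2(TPM + 1) scale were not tested in this way. TMM factors came from edgeR 4.0.16 (R 4.3.3) on rounded counts. All else ran in Python 3.11.15 with pandas 2.3.3, numpy 2.4.6, matplotlib 3.10.9 and scipy 1.17.1. Alternatives were a pseudocount of 0.1, CPM, TPM of nuclear genes, posterior means, centring on the median gene, other detection limits, and leaving out each library.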

Additional observations from a re-analysis of the deposited data

How the results depend on the processing

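The median level of the 10 genes, 35.2 TPM, was 45.5 TPM when scaled to nuclear genes alone, 79.0 by CPM and 22.5 TPM with coding transcripts alone (chosen after seeing the data). The share of Kcna1 in the alpha sum, 66.0%, was 86.1% by CPM and 84.4% with coding transcripts alone. The share of Kcnab3 in the beta sum, 34.7%, was 28.4% by CPM and 23.7% with coding transcripts alone. The alpha to beta ratio, 0.518, was 1.29 by CPM, which does not divide by length. The number of genes beyond 2-fold was 2 with a pseudocount of 0.1, against 1. The median share of the leading transcript, 79.3% over 7 genes, was 78.2% from posterior means and 80.6% from counts. Among transcripts of the protein-coding class it was 90.8%, but over only the 4 genes whose leading transcript has that class. Of 132 values of single genes under alternatives other than leaving out a library, 82 moved by less than the spread between the areas or, for log2 ratios, by less than their counting error and without crossing 2-fold. Among ratios beyond 2-fold, 0 changed sign. No paired analysis was possible because there is 1 group. Depth limits Kcna2, with 21 counts in replicate 1, most.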
